A study of Mus musculus with 2 samples.

Results

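The 35 genes described here encode the machinery with which the endoplasmic reticulum (ER) folds secreted and membrane proteins, oxidises their cysteines and removes those that fail. They were chosen by name from the 23288 genes measured in both libraries of the series, and all 35 were found. For this report they were sorted into 11 chaperones and co-chaperones, 8 disulfide enzymes, 10 factors of ER-associated degradation and 6 stress sensors. The last group, as sorted here, also holds the transcription factor Xbp1 and the proteases that activate Atf6. They lie on 14 chromosomes.

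The series compared splenic B cells of Nedd4+/+ and Nedd4-/- genotype, each taken from fetal liver chimeras, mice whose blood cells grow from transplanted fetal liver, on a mixed B6 and 129 background crossed back to B6. The Nedd4 protein is a HECT-type ubiquitin ligase. Both cultures received lipopolysaccharide (LPS) and interleukin 4 for 72 hours, which activates B cells and directs class switching to IgG1, and RNA without ribosomal RNA was then sequenced. Each genotype is 1 library, the labels name no second animal or culture, and they give no age, so no difference below has a replicate check and none was tested for genotype.

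A B cell that becomes an antibody-secreting cell enlarges its ER and fills it with chaperones and disulfide isomerases. Unfolded protein in the ER is sensed by Ern1 (IRE1), Eif2ak3 (PERK) and Atf6, and active Ern1 splices the messenger RNA of Xbp1, which then encodes the transcription factor that many ER genes answer to. Atf6 is cut in the Golgi by the proteases of Mbtps1 and Mbtps2, and its released part binds promoters together with NF-Y. Proteins that cannot be folded are passed back through the membrane by the Sel1l and Syvn1 complex, tagged with ubiquitin and degraded by the proteasome.

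Promoter sequence was examined first, because a known element, the ER stress element (ERSE), ties many of these genes to Atf6 and NF-Y. Sequences from 250 bases before to 50 bases after each start, from RefSeq on build GRCm38.p6, were at hand for 31 of the 35 genes. The ERSE was searched on both strands as CCAAT and CCACG with any 9 bases between them. It was present in 10 of the 31 (32.3%), against 37 of 27025 genes (0.137%) in the whole table. The element was chosen because it is known from such genes, so this excess follows from the choice and is no result of these data. Of 18 other ER folding genes with a promoter entry, from a list described below, 0 held it. By role it was present in 6 of 9 chaperones, 2 of 8 disulfide enzymes, 2 of 9 degradation factors and 0 of 5 sensors. A match describes letters in this window and no more, and a window without a match says nothing about the factor.

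3 promoters are printed whole, with ERSE letters in capitals. Hspa5 is shown as the central ER chaperone, Hsp90b1 as the only member with 2 matches, and Derl3 as the member with the widest difference between the libraries. They lie at chr2:34771840-34772139 (+ strand), chr10:86705395-86705694 (- strand) and chr10:75893148-75893447 (+ strand) of GRCm38.p6, and each reads 5' to 3' along the gene.
Hspa5: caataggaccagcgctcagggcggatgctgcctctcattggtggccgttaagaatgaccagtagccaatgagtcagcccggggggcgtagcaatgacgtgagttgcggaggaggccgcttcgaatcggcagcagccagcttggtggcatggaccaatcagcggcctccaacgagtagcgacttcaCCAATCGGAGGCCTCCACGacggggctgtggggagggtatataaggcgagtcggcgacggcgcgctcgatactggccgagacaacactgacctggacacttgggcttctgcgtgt
Hsp90b1: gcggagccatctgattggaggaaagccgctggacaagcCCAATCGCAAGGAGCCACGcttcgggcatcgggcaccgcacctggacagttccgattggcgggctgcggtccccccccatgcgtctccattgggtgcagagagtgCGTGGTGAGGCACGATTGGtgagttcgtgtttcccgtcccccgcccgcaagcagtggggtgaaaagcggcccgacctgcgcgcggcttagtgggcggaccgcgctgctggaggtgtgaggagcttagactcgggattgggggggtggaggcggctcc
Derl3: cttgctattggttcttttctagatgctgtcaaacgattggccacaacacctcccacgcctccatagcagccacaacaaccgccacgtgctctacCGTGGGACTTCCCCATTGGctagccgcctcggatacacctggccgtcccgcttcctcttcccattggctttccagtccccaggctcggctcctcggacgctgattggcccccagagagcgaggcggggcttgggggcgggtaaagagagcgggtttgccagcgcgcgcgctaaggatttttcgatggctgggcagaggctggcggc

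The match began 65 bases before the start in Hspa5 and 156 bases before it in Derl3. In Hsp90b1 the matches began 212 and 107 bases before the start, the nearer one on the opposite strand. The other 7 genes with the element are shown with 10 bases on either side, so that the fixed ends and the free middle can be compared. The element reads forward in Canx, Dnajc3, Pdia6 and Syvn1 and on the opposite strand, as CGTGG followed by ATTGG, in Calr, Creld2 and Ero1lb.
Calr: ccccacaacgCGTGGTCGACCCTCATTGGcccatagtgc
Canx: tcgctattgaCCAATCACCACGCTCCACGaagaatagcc
Dnajc3: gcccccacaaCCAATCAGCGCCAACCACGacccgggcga
Creld2: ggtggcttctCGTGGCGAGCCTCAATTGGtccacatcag
Pdia6: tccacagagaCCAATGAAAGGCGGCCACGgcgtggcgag
Ero1lb: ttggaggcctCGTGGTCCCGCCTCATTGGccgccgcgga
Syvn1: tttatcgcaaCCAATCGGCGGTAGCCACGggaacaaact

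A shorter form, ERSE-II, was searched as ATTGG and CCACG with any 1 base between them, and the XBP1-type element UPRE as TGACGTGG, both on both strands. ERSE-II shares the CCAAT letters, reversed, and the CCACG end with the ERSE, but no member held both. ERSE-II was present in Dnajb11 and Herpud1, 2 of 31 members against 0.0444% of all genes, and the UPRE in Txndc5 and Txndc11, 2 of 31 against 0.714%. None of the 3 elements was found in these windows for 17 members. Of these, 5 had a deposited level at least 2-fold lower in the Nedd4-/- library, namely Pdia4, Ero1l, Sel1l, Edem2 and Os9. The same held for 6 of the 14 members with an element and for 2.79% of all genes tested. With 1 RPKM added to each level, the scale of the 2-fold rule below, the counts were 2 of 17 (Pdia4 and Os9) and 5 of 14. The share of all genes tested was then 1.15%. A gene with several RefSeq starts was counted once if any of them matched, as Txndc5 did at 1 of its 3 starts. The elements are again in capitals.
Dnajb11: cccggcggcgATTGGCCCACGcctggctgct
Herpud1: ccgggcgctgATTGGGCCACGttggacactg
Txndc5: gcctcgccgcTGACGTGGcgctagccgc
Txndc11: gaagtgtggcTGACGTGGagagtccggg

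The libraries differed in ways that touch every value below. Nedd4 stood at 7.59 RPKM in Nedd4+/+ cells against 1.95 RPKM in Nedd4-/- cells. The depth worked out from the deposited values was 8.40 and 6.17 gigabases, of which 32.6% and 24.4% fell in transcripts of known length. Sex-linked transcripts differed as well, Xist at 23.7 and 0.0958 RPKM and Ddx3y at 2.63 and 10.6 RPKM, and with 1 library each this cannot be told apart from genotype.

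Levels are in RPKM, read numbers divided by transcript length and by the mapped reads of the library, and so can be compared between genes. Members spanned 1.75 to 504 RPKM in the Nedd4+/+ library and 1.75 to 263 RPKM in the Nedd4-/- library. Their summed level was 3058 RPKM in the Nedd4+/+ library, 2.05% of the sum over all genes, and 1600 RPKM in the Nedd4-/- library, 1.38% of that sum. Among all genes ranked by level, 17 members stood in the first 500 in the Nedd4+/+ library and 15 in the Nedd4-/- library.

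**Figure D1:**
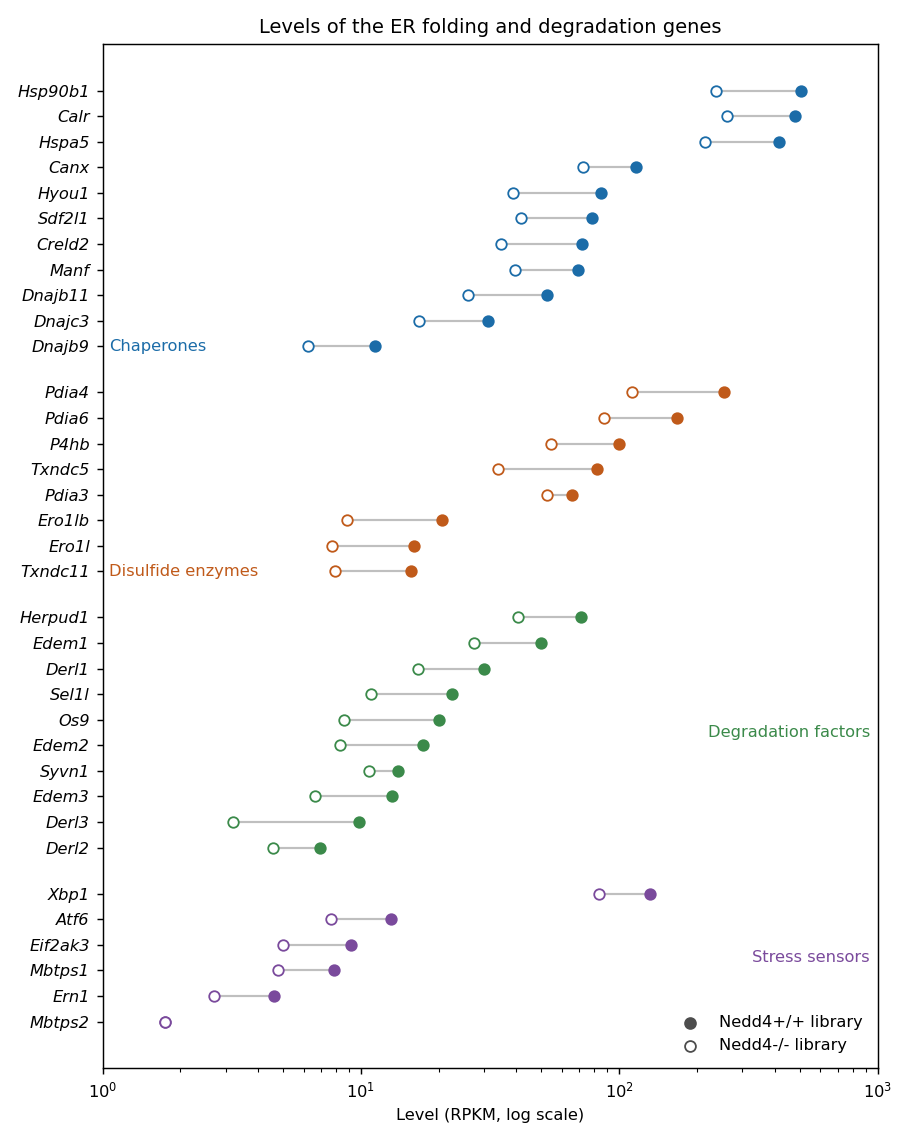
Level of each of the 35 genes in RPKM on a log axis, 1 point per library, filled for Nedd4+/+ and open for Nedd4-/-, ordered by level within each role. The open point lies left of the filled one for 34 genes, while those of Mbtps2 coincide at 1.75 RPKM.

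Differences are given as log2 ratios, Nedd4-/- over Nedd4+/+, of RPKM + 1, a scale that understates differences of low genes. For the 9405 genes whose mean level reached 1 RPKM the median was itself -0.31, so a relative value, the log2 ratio minus that median, is given beside the ratio where it matters. The members had a median log2 ratio of -0.86, or -0.55 relative. Their quartiles were -0.99 and -0.73, with Derl3 at -1.36 and Mbtps2 at 0.00 as the ends. On the scale of RPKM + 1, 8 of 35 members (22.9%) were at least 2-fold lower, against 1.15% of all genes tested, and this is the 2-fold rule used below. With no pseudocount added to the deposited RPKM it was 12 of 35 (34.3%), against 2.79% of all genes, the 4 more being Dnajb11, Ero1l, Sel1l and Edem2. Relative to the median it was 1 of 35, Derl3 (2.86%), against 0.223% of all genes with the pseudocount and 0.606% without it. No member was 2-fold higher on any of these scales, against 0.138% of all genes by the 2-fold rule and 0.276% without the pseudocount. In bulk RNA fewer secreting cells and less ER message per cell cannot be told apart. The members were part of the earlier results from which the list was drawn up, so these counts describe the list.

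A total of 30 members lay among the lowest 10% of genes tested by log2 ratio. Below the median of all genes stood 34 of 35, against 50% of genes tested, with Mbtps2 above it. Pdia3 and Syvn1 lay so near the median (-0.00 and -0.04 relative) that they moved to the other side with a pseudocount of 0.1 or none, a minimum of 5 RPKM, or values rescaled to bases in transcripts. The rank of a gene by level does not depend on scaling. It was lower in the Nedd4-/- library for 32 of 35 members, against 48.6% of genes tested, and higher for Pdia3, Syvn1 and Mbtps2. The median rank among all genes went from 761 to 1107.

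**Figure D2:**
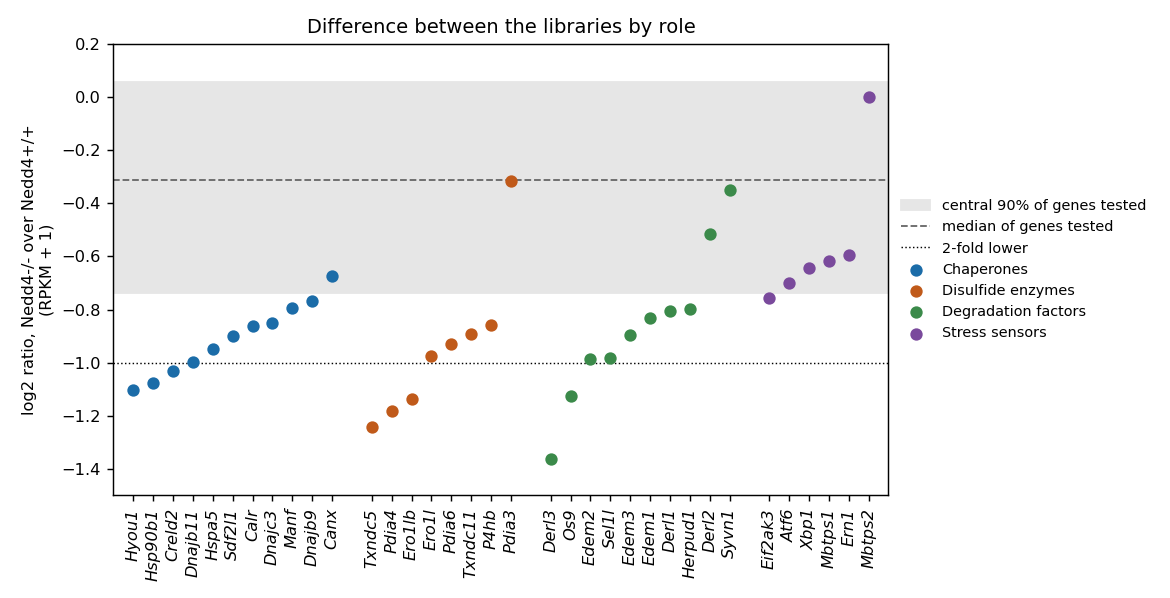
Log2 ratio (RPKM + 1) of each of the 35 genes, Nedd4-/- over Nedd4+/+, by role, with the median of the 9405 genes tested (dashed), the central 90% of them (grey, -0.74 to 0.06) and the 2-fold line (dotted). Most chaperones, disulfide enzymes and degradation factors lie below the grey band, whereas 5 of the 6 sensors lie within it.

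Members were also set beside all genes of like level. Among genes with a mean of 5 to 20 RPKM, members had a median log2 ratio of -0.89 and all genes -0.37. Between 20 and 100 RPKM the medians were -0.85 and -0.41, and from 100 RPKM up -0.94 for 6 members and -0.41 for 166 genes, the members included. The 2 members under 5 RPKM, Ern1 and Mbtps2, were at -0.59 and 0.00, where all genes of that level had a median of -0.25.

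Chaperones came first in abundance and held 62.6% of the members' summed level in the Nedd4+/+ library and 62.0% in the Nedd4-/- library. All 11 lay below the all-gene median, 3 were at least 2-fold lower (4 without pseudocount), and the group median was -0.90 (-0.59 relative). Hspa5, the Hsp70 of the ER lumen also known as BiP, had 415 RPKM in Nedd4+/+ cells against 215 RPKM in Nedd4-/- cells (log2 ratio -0.95, values in this order from here on). Hsp90b1, the Hsp90 of the ER, was the most abundant member, at 504 and 238 RPKM (-1.08). Calr, a lectin chaperone of the lumen that binds glycoproteins with a trimmed sugar, was at 478 and 263 RPKM (-0.86). In the Nedd4-/- library Calr therefore stood above Hsp90b1, the reverse of the order in the Nedd4+/+ library. The membrane-bound lectin chaperone Canx was at 117 and 72.6 RPKM (-0.67), the narrowest difference of the chaperones.

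The 4 ratios differed beyond counting error. For the ratio without pseudocount the exact 95% counting interval on the log2 scale was -1.10 to -1.06 for Hsp90b1, -0.98 to -0.93 for Hspa5, -0.89 to -0.84 for Calr and -0.72 to -0.65 for Canx, with no overlap. Such intervals cover the number of read pairs only, and spread between cultures is not in them.

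The partners that regulate Hspa5 are J-domain proteins and exchange factors. Hyou1, a large Hsp70 relative and exchange factor for Hspa5, was at 84.7 and 38.9 RPKM (-1.10), the lowest ratio of the chaperones. Dnajb11, a J-domain protein of the lumen, was at 52.8 and 25.9 RPKM (-0.997, or -0.68 relative). Dnajc3, which carries both a J domain and substrate-binding repeats, was at 31.1 and 16.8 RPKM (-0.85). Dnajb9, a J-domain protein that represses Ern1 through Hspa5, was the least abundant chaperone, at 11.3 and 6.24 RPKM (-0.77). Each of the 4 thus had a lower level in the Nedd4-/- library, and their ratios lay on either side of that of Hspa5. Only the counting interval of Hyou1 (-1.17 to -1.08) lay apart from that of Hspa5 (-0.98 to -0.93). Those of Dnajb11 (-1.11 to -0.94), Dnajc3 (-0.96 to -0.82) and Dnajb9 (-1.02 to -0.70) overlapped it.

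Small ER-stress-inducible proteins of the lumen gave similar values. Sdf2l1, which works with the J-domain proteins, was at 78.6 and 41.7 RPKM (-0.90). Creld2 was at 72.1 and 34.7 RPKM (-1.03), past the 2-fold rule. Manf, which binds Hspa5 and is also secreted, was at 69.1 and 39.4 RPKM (-0.79). In the Nedd4+/+ library these genes lay close together, and in the Nedd4-/- library Creld2 stood lowest of them.

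Disulfide enzymes had the lowest median of the roles, -0.95 (-0.64 relative), with all 8 below the median of all genes and 3 at least 2-fold lower (4 without pseudocount). Among them Pdia3 stood apart from the other isomerases. Txndc5, an isomerase with several thioredoxin domains, was at 81.9 and 34.1 RPKM (-1.24), and Pdia4, the most abundant of the group, at 255 and 112 RPKM (-1.18). Pdia6 was at 167 and 87.2 RPKM (-0.93) and P4hb, the founding protein disulfide isomerase, at 99.6 and 54.5 RPKM (-0.86). These 4 isomerases lay below the all-gene median under both other scalings tried.

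Pdia3, the isomerase that calreticulin and calnexin recruit to glycoproteins, was at 65.9 and 52.7 RPKM (-0.32, or -0.00 relative). Its counting interval, -0.38 to -0.27, lay apart from that of Pdia4, -1.22 to -1.15. In the Nedd4+/+ library Pdia3 stood below Txndc5, and in the Nedd4-/- library above it. Its rank among all genes went from 299 to 271 where that of Txndc5 went from 227 to 468.

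Isomerases hand their electrons to oxidases. Ero1lb, the Ero1 oxidase known for secretory tissue, was at 20.7 and 8.86 RPKM (-1.14), and its paralog Ero1l at 16.1 and 7.70 RPKM (-0.97). Txndc11, a thioredoxin-domain protein of the ER membrane, was at 15.6 and 7.94 RPKM (-0.89). Both oxidases lay below the all-gene median. Ero1lb passed the 2-fold rule, and Ero1l did so without the pseudocount, at a level 2.09-fold lower in the Nedd4-/- library.

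Degradation factors had a median of -0.86 (-0.55 relative), with all 10 below the median of all genes. By the 2-fold rule Derl3 and Os9 were lower, and without the pseudocount 4 were, with Sel1l and Edem2 added. Relative to the median Derl3 alone was at least 2-fold lower, with or without the pseudocount. The derlins, which belong to the channel through which substrates leave the ER, spread widely. Derl3 was at 9.80 and 3.21 RPKM (-1.36), a level 3.06-fold lower in the Nedd4-/- library. Derl1 was at 29.9 and 16.7 RPKM (-0.81) and Derl2 at 6.93 and 4.55 RPKM (-0.51). The counting interval of Derl3, -1.90 to -1.33, rested on about 538 and 129 read pairs and did not reach those of Derl1 (-0.93 to -0.76) or Derl2 (-0.76 to -0.45). Derl3 passed from above Derl2 in the Nedd4+/+ library to below it in the Nedd4-/- library.

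Substrates are picked by lectins and mannosidase-like proteins. Os9, a lectin that hands glycoproteins to Sel1l, was at 19.99 and 8.61 RPKM (-1.13). Edem1, Edem2 and Edem3, which trim or recognise mannose on misfolded glycoproteins, had levels of 49.7, 17.4 and 13.2 RPKM in the Nedd4+/+ library and 27.5, 8.31 and 6.62 RPKM in the Nedd4-/- library. Their log2 ratios were -0.83, -0.99 and -0.90, and the 3 Edem genes kept their order of abundance. The counting intervals of Edem1 (-0.90 to -0.81) and Edem2 (-1.21 to -0.93) lay apart, while that of Edem3 (-1.09 to -0.90) reached both.

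The ligase and its scaffold did not match. Sel1l, the adaptor that holds the complex together, was at 22.5 and 10.9 RPKM (-0.98). Syvn1 (Hrd1), the ubiquitin ligase of the same complex, was at 13.9 and 10.7 RPKM (-0.35, or -0.04 relative). The counting intervals, -1.12 to -0.97 for Sel1l and -0.49 to -0.27 for Syvn1, lay apart. Sel1l stood well above Syvn1 in the Nedd4+/+ library and level with it in the Nedd4-/- library. Herpud1, a membrane protein that joins this complex under stress, was the most abundant degradation factor at 71.4 and 40.7 RPKM (-0.80). Of the degradation factors Syvn1 and Derl3 carry an ERSE in the promoter, as printed above, and they had the highest (-0.35) and the lowest (-1.36) ratio of the role. Sel1l and Os9 had none in the window.

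Stress sensors had the narrowest differences of the roles, with a median of -0.63 (-0.32 relative) and 5 of 6 below the median of all genes. Without the pseudocount, which weighs most on scarce genes, their median was -0.74. Those of the chaperones, disulfide enzymes and degradation factors were then -0.92, -1.02 and -0.92. Of the sensors 0 passed the 2-fold rule, against 1.15% of all genes tested, and 6 genes are too few to read this count as a trait of the group. Ern1 was at 4.59 and 2.71 RPKM (-0.59) and Eif2ak3 at 9.14 and 5.001 RPKM (-0.76). Atf6 was at 13.1 and 7.65 RPKM (-0.70). Each of the 3 sensors was lower in the Nedd4-/- library, and all were scarce beside the abundant chaperones.

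Xbp1 stood far above the sensors, at 132 and 83.8 RPKM (-0.64), and its ratio was less negative than those of 28 other members. Spliced and unspliced Xbp1 messages share nearly all of their sequence, so the deposited level does not tell how much was spliced. The proteases that release Atf6 differed from each other. Mbtps1 was at 7.85 and 4.77 RPKM (-0.62), and Mbtps2 at 1.75 RPKM in both libraries, with a counting interval of -0.24 to 0.24. Mbtps2 was the scarcest member, with about 348 and 256 read pairs, and the only one on chromosome X, whose 282 genes tested had a median log2 ratio of -0.32. Sensors held 5.49% of the members' summed level in the Nedd4+/+ library and 6.61% in the Nedd4-/- library.

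Members with an ERSE were more abundant and slightly lower in ratio. Their median level was 94.3 RPKM in the Nedd4+/+ library against 19.99 RPKM for the 21 members with a promoter entry but no ERSE. The median log2 ratios were -0.94 and -0.86, with ranges from -1.36 to -0.35 and from -1.24 to 0.00 that overlapped almost wholly. By the 2-fold rule 4 of 10 and 3 of 21 were lower, and without the pseudocount, which weighs most on scarce genes, 4 of 10 (40.0%) and 7 of 21 (33.3%). The element was present in 6 of 9 chaperones and 0 of 5 sensors, so element, role and level cannot be told apart here. A link between the element and the ratio was not tested.

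Other genes of the same pathways were taken from lists drawn up with earlier results of these data known. They are therefore a description beside the members and no independent check. Of 19 other ER folding genes tested (of 21), 17 lay below the all-gene median and 2 were at least 2-fold lower with or without the pseudocount, with a list median of -0.66. These were Fkbp11, a prolyl isomerase of secretory cells (12.2 and 5.06 RPKM, -1.12), and Hspa13, an Hsp70 relative (16.5 and 7.54 RPKM, -1.03). At the other end were the Toll-like receptor chaperone Cnpy3 (-0.19) and Cnpy4 (-0.10).

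Other oxidation genes were closer to the rest of the transcriptome. Of 11 tested (of 15), 6 lay below the all-gene median, 5 above it and 0 passed the 2-fold rule, with a list median of -0.41. Prdx4, a peroxidase that feeds oxidation in the ER, was at 32.2 and 19.4 RPKM (-0.71) and Qsox2, a sulfhydryl oxidase, at -0.56. Vkorc1l1 and Qsox1 were at -0.08 and -0.07.

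Other degradation genes numbered 29, all tested, with 21 below and 8 above the median of all genes, 0 past the 2-fold rule and a list median of -0.46. Vimp, which links the derlins to the p97 ATPase, was at 32.5 and 18.3 RPKM and Ubxn4, another p97 anchor, at 13.7 and 7.45 RPKM (both -0.80). Dnajb14, a J-domain protein of the ER membrane, and Herpud2 were at 0.00 and 0.16.

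Genes of the stress branches, among them targets of Atf4 downstream of Eif2ak3, had a median of -0.58 over 20 tested (of 23), with 17 below the all-gene median and 2 at least 2-fold lower. Without the pseudocount 5 were, with the scarce genes Atf3, Chac1 and Trib3 added. Asns, asparagine synthetase, was at 44.9 and 18.7 RPKM (-1.22) and Ddit4, an inhibitor of mTORC1 signalling, at 12.0 and 5.31 RPKM (-1.04). Eif2ak4, the kinase that senses amino acid shortage, was at -0.22 and the adaptor Traf2 at -0.10. Relative to the median of all genes, none of these lists held a gene at least 2-fold lower.

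**Figure D3:**
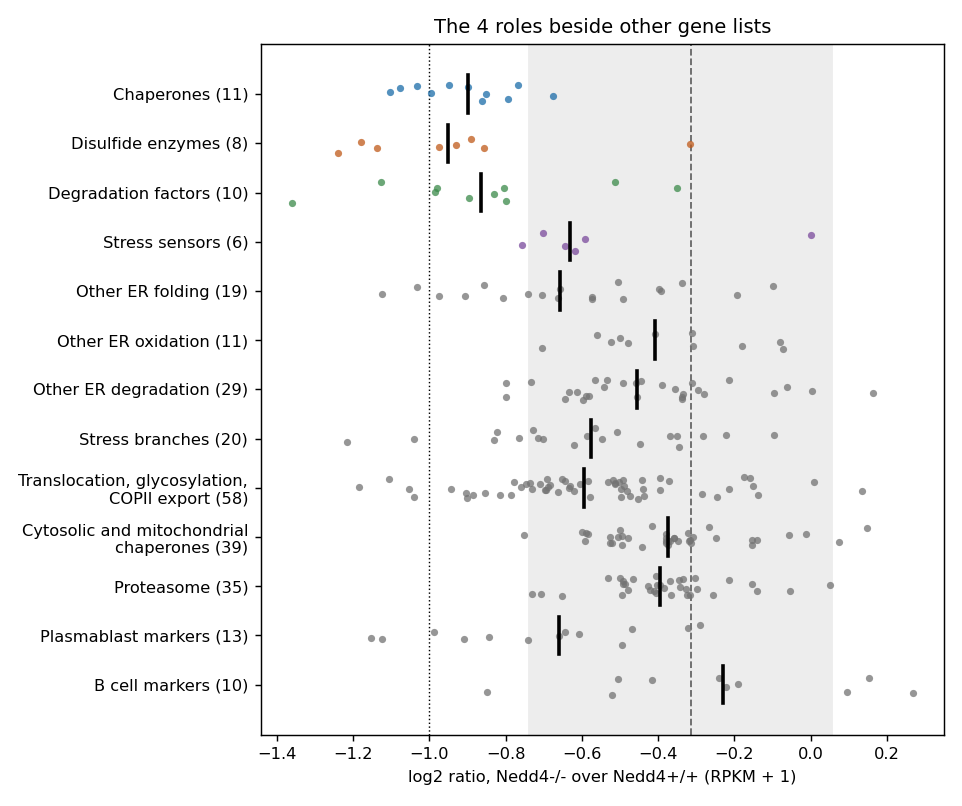
Log2 ratio (RPKM + 1), Nedd4-/- over Nedd4+/+, of each gene tested in the 4 roles (coloured) and in 9 other lists (grey), numbers tested in brackets, with list medians as black bars, the median of all genes tested dashed, their central 90% shaded and the 2-fold line dotted. Medians of the chaperones, disulfide enzymes and degradation factors, from -0.95 to -0.86, lie left of every other list, and cytosolic chaperones (-0.37) and the proteasome (-0.39) lie near the dashed line.

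3 machineries near in function were read beside the members. Genes of ER translocation, N-glycosylation and COPII export had a median of -0.59 over 58 tested, with 49 below the all-gene median and 4 at least 2-fold lower (5 without pseudocount). The furthest were Lman1, a cargo receptor (33.9 and 14.4 RPKM, -1.18), and Sec61a1, the channel of translocation (90.6 and 41.5 RPKM, -1.11), while Sec24b and Alg3 were at 0.01 and 0.14. Cytosolic and mitochondrial chaperones, which fold proteins outside the ER, had a median of -0.37 over 39 tested (of 40) with 0 past the 2-fold rule, from Dnajc2 (-0.75) and Hsp90ab1 (-0.60) to Hsph1 (0.08) and Bag2 (0.15). The 35 proteasome subunits had a median of -0.39, also with 0 past the rule, from Psmd3 (-0.73) and Psmd8 (-0.71) to Psma3 (-0.05) and Psmd5 (0.05). Hsp90b1 thus had a wider log2 ratio than its cytosolic counterpart Hsp90ab1, at 383 and 252 RPKM. Hspa5 likewise had a wider one than Hspa8, the constitutive cytosolic Hsp70, at 207 and 159 RPKM (-0.38).

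The upstream kb gives a readout of the same genes from a neighbouring region. The level of a window is here in RPKM, its log2 ratio used RPKM + 0.1, and windows were compared if their mean reached 0.2 RPKM. Of the members, 31 qualified. Windows were higher in the Nedd4-/- library for 17 of them and lower for 14, against 71.2% of all 11837 windows higher. Their median was 0.12, against 0.41 for all windows, so relative to all windows it was -0.29. Windows were read from few pairs, since a window holding 1 pair has 0.0241 RPKM (Nedd4+/+) or 0.0328 RPKM (Nedd4-/-).

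On the scale of RPKM + 0.1, Hspa5 had the widest upstream difference of the members. Its window was at 0.208 RPKM in the Nedd4+/+ library and 0.947 RPKM in the Nedd4-/- library (log2 ratio 1.76). The counting interval without pseudocount was 1.052 to 3.47, from about 8.66 and 28.9 pairs. The sign was opposite to that of the gene. Opposite signs also held for the medians of all windows (0.41) and of all genes tested (-0.31). The windows of Os9, at 0.0722 and 0.329 RPKM, and Dnajb9, at 0.204 and 0.647 RPKM, were also higher, with log2 ratios of 1.32 and 1.30. On the scale of RPKM + 0.1 at least 2-fold lower values were those of the windows of Canx, at 1.26 and 0.549 RPKM (-1.06), and Txndc5, at 1.33 and 0.589 RPKM (-1.05). On this scale 3 of 31 were at least 2-fold higher, against 19.8% of all windows, and 2 of 31 were at least 2-fold lower, against 0.794%. The window of Xbp1 is listed at 0 in both libraries, as are 197 windows in all.

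Windows with and without a neighbouring gene gave different values. Another RefSeq gene overlaps the kb before the gene's outermost start in GRCm38 for 13 members, among them Hsp90b1, Canx, Txndc5 and Derl2, whose neighbour is Mis12. Of these 13 windows, 2 were higher in the Nedd4-/- library, against 57.8% of all such windows, with a median log2 ratio of -0.31. Of the 18 tested windows with no other gene, 15 were higher, against 83.2% of all such windows, with a median of 0.40. Pairs from a neighbouring gene cannot be told apart from those of the member in such windows, and the mm9 windows of the files may begin at another start.

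**Figure D4:**
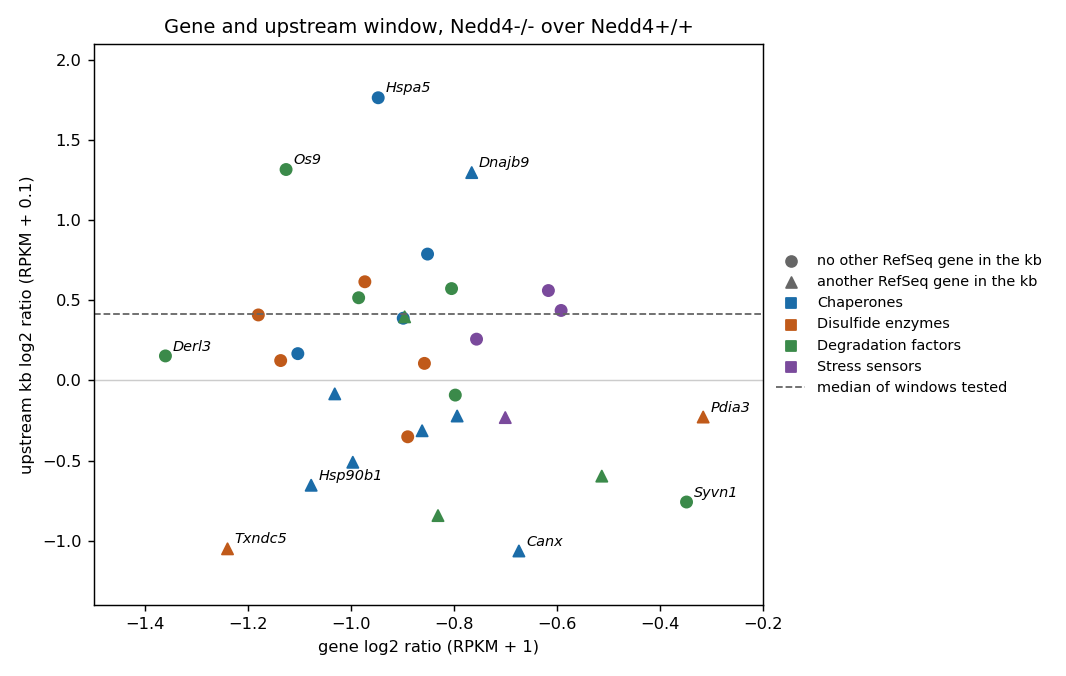
Log2 ratio of the gene (RPKM + 1, horizontal) and of its upstream kb (RPKM + 0.1, vertical), Nedd4-/- over Nedd4+/+, for the 31 members whose window mean reached 0.2 RPKM; triangles mark windows that another RefSeq gene overlaps. All genes lie below 0 on the horizontal axis, while windows lie on both sides of 0, with Hspa5 highest at 1.76 and Canx lowest at -1.06.

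Markers of cell types were read beside these genes. All 10 B cell markers exceeded 1 RPKM in both libraries, with a median log2 ratio of -0.23 and a range from Cd22 (49.1 and 26.8 RPKM, -0.85), near the members' median, to Fcer2a (11.0 and 13.5 RPKM, 0.27). Plasmablast markers, genes of cells turning to antibody secretion, were lower alongside the members. Of 16, 13 were tested and 12 lay below the all-gene median, with a list median of -0.66 and a summed level of 714 and 396 RPKM. By the 2-fold rule 2 of 13 (15.4%) were lower, against 1.15% of all genes tested. Without the pseudocount 5 of 13 were (38.5%), against 2.79% of all genes and 34.3% of the members, so such a share is not particular to the members. Igj, the antibody joining chain, was at -1.15 and Fkbp11 at -1.12, whereas Slamf7 and Cxcr4 were at -0.32 and -0.29. None was listed at 0. The list includes Xbp1, and it shares Fkbp11 and 1 further gene with the other ER folding genes above, so these lists are not separate. Its part in the differences of the ER genes was not tested. Markers of T cells summed to 2.60 and 3.64 RPKM over 10 genes, of myeloid cells to 3.30 and 5.04 RPKM over 11, and of erythroid cells and megakaryocytes to 5.49 and 3.93 RPKM over 8, with none listed at 0.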

How the data were processed

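RNA of 1 Nedd4+/+ and 1 Nedd4-/- B cell culture was sequenced after removal of ribosomal RNA with a Ribo-Zero kit, per the labels. The submitters' processing notes name TopHat, Cufflinks and mm9 without versions or roles. Settings for strand, multi-mapping and counting: not given in the sources used here. Thus reads of overlapping genes cannot be told apart. Gene levels were deposited in RPKM, per the file headers, with 1 RefSeq transcript for each gene. The deposited upstream column holds a ratio, that of the 1000-nt window's level over the gene's RPKM + 0.0001. Their product with RPKM + 0.0001 gave whole read bases (within 0.05) in 99.99% of 17571 low windows of the Nedd4+/+ and 100% of 17503 of the Nedd4-/- library. The design had assumed a level.

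The value of 1 base gave the depth, 101-nt reads being read from the commonest window counts. Pairs per gene used GENCODE lengths (22622 genes) and exact Clopper-Pearson 95% intervals, which cover counting error only. Genes whose mean level reached 1 RPKM were compared with a fixed 2-fold rule, and no p-value was computed. Functions were tested on simulated data. Members, lists and elements were chosen with earlier results of these data known. Files list some genes under older names, and these were matched by accession. Named are all members, Nedd4 and the 2 highest and 2 lowest genes of each list. Marker lists give sums, and Xist, Ddx3y, Mis12, Hspa8, Cd22, Fcer2a, Atf3, Chac1 and Trib3 were named after their values were seen. Alternatives were pseudocount, minimum level, centring, no pseudocount and a rescaling to bases in transcripts, these 2 chosen after seeing the data. Analyses used Python 3.11.15, pandas 2.3.3 and scipy 1.17.1.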

Additional observations from a re-analysis of the deposited data

How the results depend on the processing

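No paired analysis was possible because each genotype has 1 library, and for the same reason no replicate could be left out. With a pseudocount of 0.1 RPKM 12 members were at least 2-fold lower in place of 8, and 8 were with no minimum level or a minimum of 5 RPKM. The medians of all members and of each role moved by under 0.1 under these alternatives. With no pseudocount, an alternative chosen after seeing the data, 12 members were 2-fold lower and the median of the stress sensors was -0.74, while the other medians moved by under 0.1. Relative to the median of all genes tested, 1 member was 2-fold lower, and medians were -0.55 for all members, -0.59 for chaperones, -0.64 for disulfide enzymes, -0.55 for degradation factors and -0.32 for stress sensors. Rescaled to bases in transcripts, also chosen after seeing the data, 1 member was 2-fold lower and the medians were -0.45, -0.49, -0.55, -0.47 and -0.27 in that order, while the log2 ratios of Pdia3 (0.10) and Syvn1 (0.04) turned positive. Centring subtracts 1 value from every log2 ratio, while the rescaling multiplies every Nedd4-/- level by 1 factor before the pseudocount is added, so its shift differs between genes. Minus the median of all windows, 9 upstream windows of members were higher in the Nedd4-/- library in place of 17, and their median was -0.29. The other upstream alternatives gave 17 and 19. Depth limits the upstream windows most, since that of Hspa5 rested on about 8.66 and 28.9 pairs.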
